A study of Mus musculus with 21 samples.

Results

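The genes of the major histocompatibility complex (MHC) and of the peptide supply to its class I products were followed in EL4 cells, a mouse T lymphoma line of C57BL/6 origin, carrying a short hairpin against Ctcf (shCTCF, 2 libraries) or against luciferase (shLuc, 2 libraries). CTCF, a DNA-binding protein with zinc fingers, occupies insulators and holds cohesin at loop anchors. The comparison asks which RNA levels differ once its RNA is lowered. The members were all genes of the expression table whose symbol starts with H2- (39) and B2m, Tap1, Tap2, Tapbp, Psmb8, Psmb9, Nlrc5 and Ciita (8), taken at the row with the highest mean where a symbol had several. These are 47 of 21844 genes, and 29 of the 47 reached a mean of 1 RPKM (reads for each kilobase of a gene's model and scaled by the reads of its library) and were tested among 9898 genes. The row BC051537+H2-Oa joins H2-Oa to another gene under a symbol that does not start with H2-, and was not counted as a member. The series holds 21 samples in all, and its chromatin libraries are not analysed here. Nothing in the labels says how many hairpins against Ctcf were used, so what follows from lower Ctcf cannot be told apart from what a hairpin does otherwise. They do not name separate cultures either, and the p-values therefore reflect the spread between libraries, which may be technical. In the fit, the spread of each gene is drawn toward that of all tested genes at its level.

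Class I molecules present peptides from inside the cell to CD8 T cells. Each is a heavy chain, encoded in the mouse by H2-K, H2-D, H2-Q, H2-T and H2-M genes, bound to the invariant light chain beta2-microglobulin (B2m). Peptides are cut by the proteasome, in which Psmb8 and Psmb9 replace constitutive catalytic subunits in immune cells, carried into the endoplasmic reticulum by the transporter Tap1-Tap2, and loaded with the help of tapasin (Tapbp). Class II molecules present peptides from endocytosed material to CD4 T cells, and in the mouse are largely limited to B cells, macrophages, dendritic cells and thymic epithelium. NLRC5 is the transactivator of class I genes and CIITA that of class II genes. Both act through promoter elements that include an X box, with a cyclic AMP response element (CRE) core, and a Y box, an inverted CCAAT motif.

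The RPKM steps gave depths of 4346709 and 5768563 reads in shCTCF cells and 5240362 and 6133046 reads in shLuc cells, so that a single read over 1 kb stood for 0.163 to 0.23 RPKM. Libraries are named by the numbers 2 and 3 that head their columns. Ctcf RNA was at 26.5 and 26.4 RPKM in shCTCF cells and at 49.0 and 50.9 RPKM in shLuc cells (libraries headed 2 and 3 in each group), a log2 change of −0.89 (SE 0.08, adjusted p = 0.0075 in limma). Each log2 change given here is the shCTCF mean minus the shLuc mean of log2(RPKM + 1), where the added 1 shrinks the change of low genes. Of 10 T cell markers, from a list chosen with earlier results of these data known, all were tested. Their summed level was 1316 and 1314 RPKM in shCTCF cells and 1524 and 1523 RPKM in shLuc cells, with 9 of 10 log2 changes negative, against 4619 of all 9898 tested genes. Much of the difference in the sum came from Thy1, at 498 and 468 RPKM in shCTCF cells and 640 and 590 RPKM in shLuc cells. In limma 0 of the 10 were called, against 1.29% of all tested genes, and 6 had an unadjusted p below 0.05, against 14.1%. In bulk RNA, fewer cells of a type and less RNA per cell cannot be told apart.

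Upstream stretches are shown for the 3 most abundant members, and for Psmb9 and Tap1 because a single stretch serves both, since such stretches carry the elements through which class I genes are regulated. They are the 250 bases before the RefSeq start in GRCm38.p6 of H2-K1 (chr17:34000348-34000597, minus strand), H2-D1 (chr17:35262844-35263093, plus strand), B2m (chr2:122147437-122147686, plus strand) and H2-Ke2 (chr17:33940344-33940593, minus strand), and the 225 bases between the starts of Psmb9 and Tap1 (chr17:34187331-34187555, plus strand), which lie head to head. Capitals mark matches on either strand to the interferon-stimulated response element GAAANNGAA, the kappa B site GGGGATTCC of the class I enhancer, CCAAT, and TGACG, the CRE core. H2-Ke2 is included as the member with the smallest p in the comparison of hairpins.
H2-K1: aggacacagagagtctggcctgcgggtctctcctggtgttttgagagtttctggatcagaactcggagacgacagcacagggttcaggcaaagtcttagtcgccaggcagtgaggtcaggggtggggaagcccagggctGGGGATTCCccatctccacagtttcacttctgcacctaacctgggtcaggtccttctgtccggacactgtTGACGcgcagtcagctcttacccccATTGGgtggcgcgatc
H2-D1: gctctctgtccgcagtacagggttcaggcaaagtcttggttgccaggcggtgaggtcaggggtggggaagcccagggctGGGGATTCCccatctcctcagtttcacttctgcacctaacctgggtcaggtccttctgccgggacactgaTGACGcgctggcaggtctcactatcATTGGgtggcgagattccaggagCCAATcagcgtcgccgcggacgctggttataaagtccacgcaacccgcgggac
B2m: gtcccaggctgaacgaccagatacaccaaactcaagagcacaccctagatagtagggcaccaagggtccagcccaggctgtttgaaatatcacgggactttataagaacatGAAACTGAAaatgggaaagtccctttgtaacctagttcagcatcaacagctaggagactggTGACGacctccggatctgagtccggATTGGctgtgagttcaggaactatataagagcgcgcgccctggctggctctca
H2-Ke2: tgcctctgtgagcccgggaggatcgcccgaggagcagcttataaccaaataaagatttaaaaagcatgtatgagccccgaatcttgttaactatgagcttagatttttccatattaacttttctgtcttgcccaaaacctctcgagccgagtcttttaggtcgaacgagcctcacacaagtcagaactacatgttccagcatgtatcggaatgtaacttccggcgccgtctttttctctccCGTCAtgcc
Psmb9-Tap1: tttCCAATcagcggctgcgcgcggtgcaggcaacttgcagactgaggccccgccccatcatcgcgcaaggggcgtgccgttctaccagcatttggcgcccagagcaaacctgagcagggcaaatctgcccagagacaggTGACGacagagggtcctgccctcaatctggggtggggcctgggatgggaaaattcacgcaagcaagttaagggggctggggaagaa

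The kappa B site, the CRE core and a CCAAT match on the opposite strand (ATTGG) follow each other in the same order in H2-K1 and H2-D1. Lined up at the kappa B site without gaps, these stretches shared 166 of 190 bases (87.4%). B2m had the interferon element followed by the CRE core and ATTGG. The CRE core and a CCAAT match also stood between Psmb9 and Tap1, whereas the H2-Ke2 stretch held only a CRE core. The RefSeq promoter table had an entry for 35 of the 47 members, with 1 start used per gene. The kappa B letters were found in 4 of these 35 (H2-K1, H2-D1, H2-Q6 and H2-Q7), against 0.218% of all 27025 promoters of the same length. The interferon element, in the letters GAAANNGAA, was found in 3 (B2m, H2-T22 and H2-T23), against 7.16% of all promoters. Other spellings were not searched, so promoters such as those of H2-K1 and H2-D1 are not shown to lack it. CCAAT was found in 29, against 34.5%, and TGACG in 15, against 17.9%. Psmb9 and Tap1 are counted separately in both, though the matches lie in the stretch they share. A CTCF core written as CNAGGNGGC was found in 2 (H2-DMa and Psmb8), against 7.09% of all promoters. Both strands were searched, and a match describes letters, not binding. The letters were chosen after matches had been seen, and many members are related genes, so the shares are no test of enrichment.

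None of the MHC members passed the test in shCTCF cells, and the values of the main class I chains overlapped between the hairpins. The classical heavy chains H2-K1 and H2-D1 and the light chain B2m ranked 38, 65 and 26 of 9898 genes by mean RPKM. With limma and a Benjamini-Hochberg threshold of 0.05, 0 of the 29 tested members passed, where 1.29% of all tested genes did (0.697% higher and 0.596% lower in shCTCF cells). At an unadjusted p below 0.05 there were 4, namely H2-Ke2, H2-Bl, H2-Q1 and Tapbp, where 14.1% of all tested genes had such a p. In limma-voom on recovered reads 0 of the 26 members with a value passed, where 331 of 7551 genes (4.38%) did; Tapbp, H2-T10 and H2-T22+H2-T9 had no recovered reads. The authors' deposited table of changed genes lists 0 of the 47 members. It holds 435 rows, against 22119 rows of the expression table, and 18 of the 47 lay under the filter of 1 RPKM. With so small a share listed, a count of 0 says little about the members. The shCTCF and shLuc libraries did not overlap in 9 of the 29, or 31.0%, against 44.0% of all tested genes. Of these 9, 6 lay higher in shCTCF cells and 3 lower, where 24.1% and 19.9% of all tested genes did. The median log2 change of the 29 was 0.09, against 0.01 over all tested genes. Leaving out shLuc library 3 gave a median of −0.02, and leaving out shCTCF library 3 gave 0.02. It was 0.09 without shCTCF library 2 and 0.12 without shLuc library 2.

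**Figure D1:**
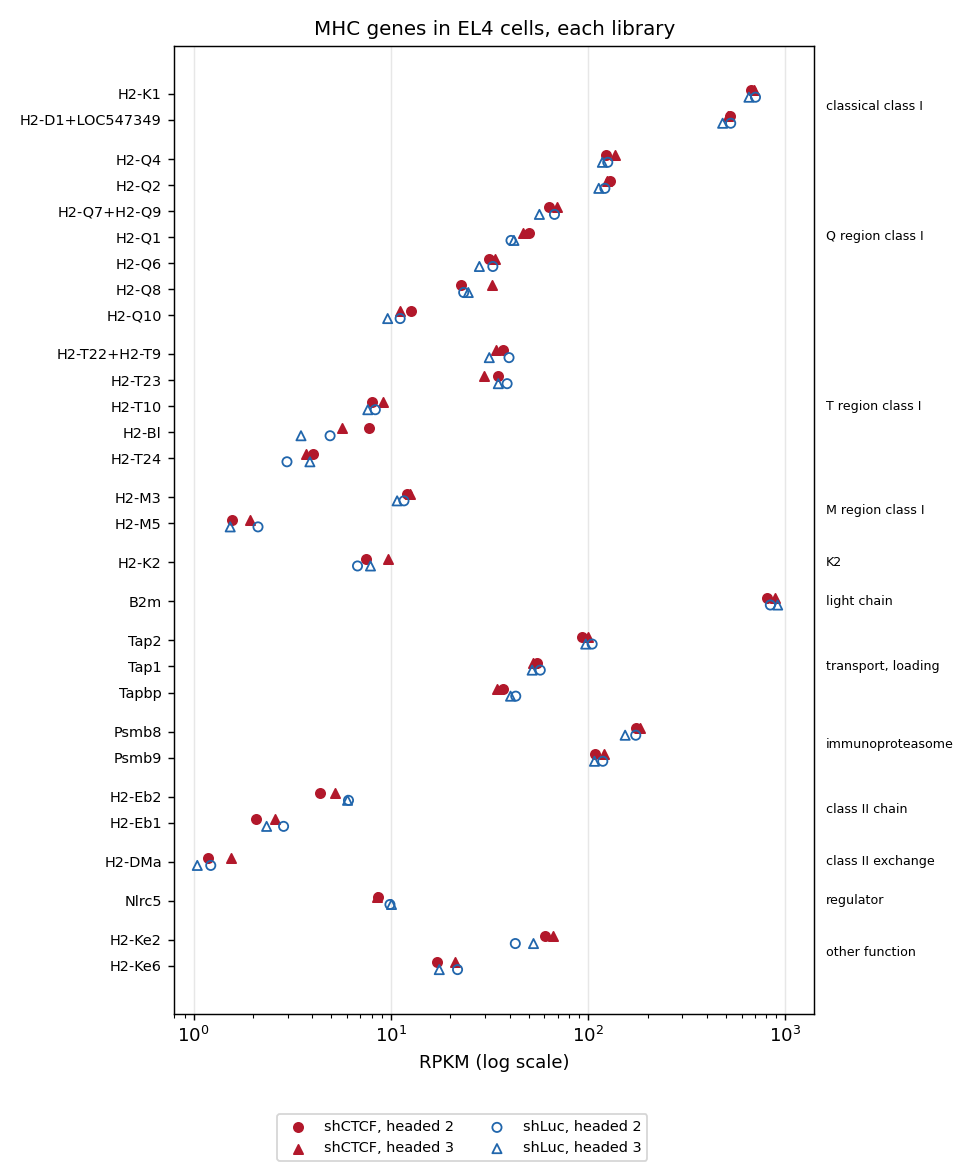
RPKM (log axis) of the 29 tested MHC members in each library, grouped by role, with shCTCF libraries as filled red symbols above the open blue shLuc symbols and the column numbers 2 and 3 as circles and triangles. The members span from a mean of 1.25 RPKM for H2-DMa to 862 RPKM for B2m. On this wide axis the red and blue symbols of most members lie close together, and they overlap in 20 of the 29. H2-Bl is spread more widely, from 3.50 RPKM in a shLuc library to 7.71 RPKM in a shCTCF library.

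H2-K1, which encodes one of the classical heavy chains of the C57BL/6 haplotype, was at 670 and 695 RPKM in shCTCF cells and at 705 and 653 RPKM in shLuc cells. The groups overlapped, with the shLuc libraries lying outside the shCTCF ones on either side. Its log2 change was 0.01 with a 95% confidence interval of −0.17 to 0.19, that is 0.888- to 1.14-fold, on 4796 and 6595 against 6081 and 6593 reads. H2-D1, the other classical heavy chain, shares its row with the near copy LOC547349 and was at 525 and 511 RPKM in shCTCF cells and at 528 and 480 RPKM in shLuc cells. The log2 change was 0.04 (interval −0.14 to 0.22), and the groups overlapped again. H2-K1 stood at 1.28 and 1.36 times the RPKM of H2-D1 in shCTCF cells, and at 1.34 and 1.36 times in shLuc cells. Class I genes are near-identical in long stretches, and how reads that match several of them were counted was not stated in the labels or headers, so the split between them is uncertain.

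The Q region encodes non-classical and less polymorphic class I chains, among them Qa-2 (H2-Q7 and H2-Q9, joined in the table). Its 7 rows all had positive log2 changes, of 0.09 to 0.22, and 0 were called. H2-Q1 was at 49.9 and 46.9 RPKM in shCTCF cells and at 40.6 and 42.1 RPKM in shLuc cells. Every shCTCF value lay above both shLuc values, with a log2 change of 0.22 (SE 0.08, interval 0.03 to 0.41, adjusted p = 0.26 in limma). H2-Q2 was at 129 and 124 RPKM in shCTCF cells and at 122 and 113 RPKM in shLuc cells, also without overlap, with a log2 change of 0.11 (adjusted p = 0.61). H2-Q4 was at 123 and 136 RPKM in shCTCF cells and at 126 and 118 RPKM in shLuc cells, and the groups overlapped. H2-Q7+H2-Q9 averaged 66.4 ± 4.64 RPKM in shCTCF cells and 62.0 ± 7.71 RPKM in shLuc cells (SD, n = 2 each). The means were 32.5 ± 1.52 and 30.5 ± 3.38 RPKM for H2-Q6 and 27.5 ± 7.05 and 24.0 ± 0.906 RPKM for H2-Q8, in shCTCF and shLuc cells. H2-Q10, known as a secreted class I chain of liver, was at 12.7 and 11.1 RPKM in shCTCF cells and at 11.1 and 9.63 RPKM in shLuc cells. With the sign the same in all 7, the rows may still share reads, so they are not 7 separate observations. The shLuc library headed 3 was the lowest of the 4 for H2-Q2, H2-Q4, H2-Q6, H2-Q7+H2-Q9 and H2-Q10.

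Most heavy chain rows were lower in that library than in the other shLuc library, while B2m was at its highest of the 4 there. Of the 17 tested heavy chain rows, 13 were lower in the shLuc library headed 3 than in the one headed 2, with a median difference of −0.11 on the log2(RPKM + 1) scale, whereas all tested genes had a median of 0.00. Between the shCTCF libraries the median difference of the 17 rows, library headed 3 minus library headed 2, was 0.05. The median log2 change of these 17 rows between hairpins was 0.10. It came to 0.04 with shLuc library 3 left out and to 0.05 with shCTCF library 3 left out. With shCTCF library 2 left out it was 0.14, and with shLuc library 2 left out 0.15, so its size rests on single libraries.

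The T region holds further non-classical chains. H2-T23 encodes Qa-1, the ligand of the CD94-NKG2A receptor of natural killer cells, and was at 35.1 and 29.7 RPKM in shCTCF cells and at 38.8 and 35.0 RPKM in shLuc cells. The groups overlapped by a small margin, and the log2 change was −0.19 (interval −0.43 to 0.06, adjusted p = 0.50). H2-T22+H2-T9 and H2-T10, whose products include ligands of gamma delta T cell receptors, averaged 35.7 ± 2.07 and 8.57 ± 0.741 RPKM in shCTCF cells and 35.6 ± 5.77 and 7.99 ± 0.496 RPKM in shLuc cells. H2-Bl was at 7.71 and 5.66 RPKM in shCTCF cells and at 4.92 and 3.50 RPKM in shLuc cells. Its groups did not overlap, and its log2 change of 0.56 (SE 0.18, interval 0.14 to 0.98, adjusted p = 0.22 in limma) was the highest of the 29. It rested on 39 and 38 reads in shCTCF cells and 30 and 25 reads in shLuc cells. H2-T24 averaged 3.87 ± 0.193 and 3.43 ± 0.645 RPKM in shCTCF and shLuc cells, and H2-T3, the thymus leukemia antigen, lay below the filter at 0.528 and 0.557 RPKM in shCTCF cells and 0.350 and 0.524 RPKM in shLuc cells.

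In the M region H2-M3, which presents N-formylated peptides, was at 12.1 and 12.5 RPKM in shCTCF cells and at 11.7 and 10.8 RPKM in shLuc cells, a log2 change of 0.13 (adjusted p = 0.66). H2-M5 averaged 1.75 ± 0.25 and 1.83 ± 0.415 RPKM in shCTCF and shLuc cells. The other 10 M genes, among them the H2-M10 genes known from the vomeronasal organ, gave 1 read or none over the 4 libraries. H2-K2, whose row has a non-coding transcript, averaged 8.58 ± 1.57 and 7.33 ± 0.783 RPKM. Summed over all 28 heavy chain rows, class I RNA came to 1741 and 1767 RPKM in shCTCF cells and 1771 and 1628 RPKM in shLuc cells. H2-K1 and H2-D1 supplied 68.7% and 68.2% of it in shCTCF cells and 69.6% in each shLuc library, and the Q rows 24.8% and 25.7% in shCTCF cells and 23.9% and 24.1% in shLuc cells.

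B2m was at 809 and 888 RPKM in shCTCF cells and at 838 and 913 RPKM in shLuc cells. In each group the library headed 3 was the higher, and the groups overlapped. The log2 change was −0.05 (interval −0.24 to 0.15, 0.846- to 1.11-fold). Heavy chain RNA stood at 2.15 and 1.99 times the B2m level in shCTCF cells and at 2.11 and 1.78 times in shLuc cells, per length. The plot of the log2 changes shows how narrow the intervals of these abundant members were beside those of the low ones.

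**Figure D2:**
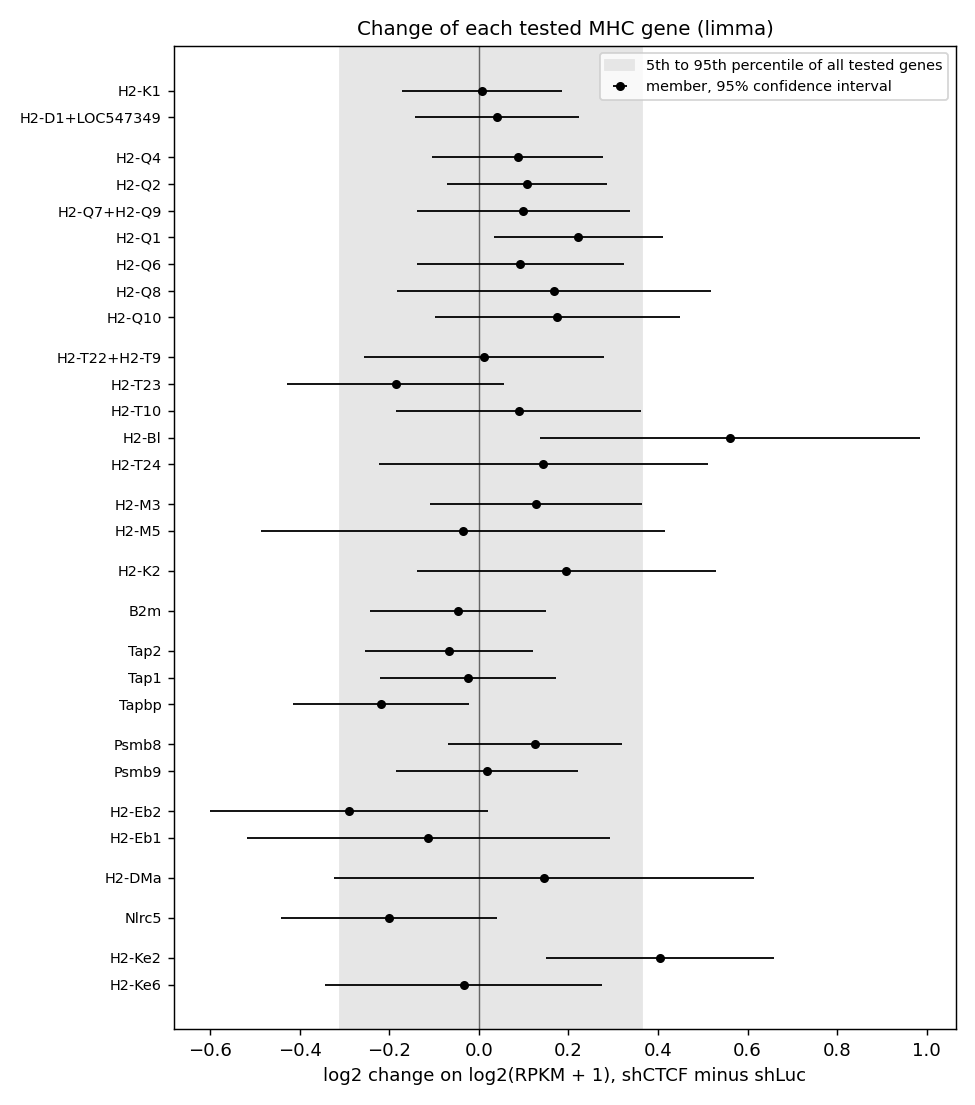
Log2 change, shCTCF minus shLuc on log2(RPKM + 1), of the 29 tested members (points) with 95% confidence intervals from limma (bars); the grey band holds the 5th to 95th percentile of all 9898 tested genes, −0.31 to 0.36. Only H2-Bl and H2-Ke2 lie outside the band, and the intervals of H2-Ke2, H2-Bl, H2-Q1 and Tapbp leave out 0.

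Among the genes of peptide supply, the transporter chain Tap1 was at 55.1 and 52.2 RPKM in shCTCF cells and at 57.2 and 52.0 RPKM in shLuc cells. Its partner Tap2 was at 93.0 and 99.8 RPKM in shCTCF cells and at 105 and 97.2 RPKM in shLuc cells. Both overlapped between hairpins, with log2 changes of −0.02 and −0.07. Tapbp (tapasin), which bridges the transporter and the heavy chain, was at 36.9 and 34.5 RPKM in shCTCF cells and at 43.0 and 40.4 RPKM in shLuc cells. Both shCTCF values lay below both shLuc values, with a log2 change of −0.22 (SE 0.09, interval −0.41 to −0.02, adjusted p = 0.30 in limma). The immunoproteasome subunit Psmb8 was at 176 and 182 RPKM in shCTCF cells and at 174 and 154 RPKM in shLuc cells, without overlap and with a log2 change of 0.13 (adjusted p = 0.58). Psmb9 was at 108 and 121 RPKM in shCTCF cells and at 119 and 108 RPKM in shLuc cells, a log2 change of 0.02. Psmb9 and Tap1, which start from the head-to-head stretch printed above, thus had log2 changes of 0.02 and −0.02. Psmb9 stood at 1.04 and 1.01 times its constitutive counterpart Psmb6 in shCTCF cells and at 1.23 and 1.09 times in shLuc cells. Psmb8 stood at 1.51 and 1.41 times the joined row of its counterpart, Mir686+Psmb5, in shCTCF cells and at 1.33 and 1.16 times in shLuc cells. Neither of these ratios overlapped between hairpins, and they differed in opposite directions. Among single genes, the groups did not overlap in 44.0% of all tested. The ratio of Psmb10 to Psmb7, both outside the members, did overlap. It was 0.149 and 0.123 in shCTCF cells and 0.135 and 0.129 in shLuc cells. No test was run on the ratios.

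The other genes of peptide supply, from lists chosen with earlier results of these data known, likewise gave no call in limma. Of 10 genes of the loading complex and peptide handling in the endoplasmic reticulum, 8 had positive log2 changes and the median was 0.03, with 0 at an unadjusted p below 0.05. With 1 library left out that median ran from −0.01 (without shLuc library 2) to 0.07 (without shLuc library 3). The chaperones Hspa5 and Calr had log2 changes of 0.03 each. Of 19 proteasome genes, 16 were positive with a median of 0.10 and 0 were at an unadjusted p below 0.05 in limma. The groups did not overlap in 52.6% of the 19, against 44.0% of all tested genes. Among all 9898 tested genes 5279 were positive, and 14.1% had an unadjusted p below 0.05. The median of the proteasome genes was 0.04 without shCTCF library 3, 0.06 without shLuc library 2 and 0.13 without shCTCF library 2. Psmb6 was at 104 and 119 RPKM in shCTCF cells and at 96.3 and 98.7 RPKM in shLuc cells, a log2 change of 0.19 (adjusted p = 0.39). The class I-like genes outside the MHC had 3 of 9 rows above the filter. Hfe, an iron-regulating class I-like protein, was at 3.61 and 3.32 RPKM in shCTCF cells and at 1.88 and 2.27 RPKM in shLuc cells, a log2 change of 0.54 (adjusted p = 0.19).

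Of the regulators, Nlrc5 was well detected and Ciita was not. Nlrc5 was at 8.58 and 8.54 RPKM in shCTCF cells and at 9.89 and 10.07 RPKM in shLuc cells. The replicates were close and the groups did not overlap. The log2 change was −0.20 (SE 0.11, interval −0.44 to 0.04, adjusted p = 0.47 in limma). Ciita was at 0.0919 and 0.0346 RPKM in shCTCF cells and at 0.0381 and 0 RPKM in shLuc cells, on at least 4 reads over all libraries. Of 11 factors and coactivators of the class I and class II promoter complex, 5 were positive and the median was −0.03, which was −0.01 without shCTCF library 2 or without shLuc library 3. Atf1, a CRE-binding factor, and Kat2b, an acetyltransferase, had log2 changes of −0.19 and −0.27 (adjusted p 0.33 and 0.35), and 0 of the 11 were called in limma. Rfx5, a subunit of the X box factor, averaged 7.05 ± 0.2 RPKM in shCTCF cells and 6.54 ± 0.61 RPKM in shLuc cells. Of 20 tested genes of interferon and NF-kappa B signalling, 9 were positive, 0 were called and the median was −0.01. With 1 library left out it ran from −0.04 (without shCTCF library 2) to 0.06 (without shCTCF library 3), and was 0.02 and −0.03 without shLuc libraries 2 and 3. Nfkbia, the inhibitor of NF-kappa B, was at 40.2 and 41.1 RPKM in shCTCF cells and at 53.9 and 46.4 RPKM in shLuc cells, a log2 change of −0.29 (adjusted p = 0.21).

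Class II genes were low or at 0. H2-Aa and H2-Ab1, the chains of the I-A molecule, gave 1 read each, both from shCTCF library 2, at 0.215 and 0.193 RPKM, and were at 0 elsewhere. A value of 0 allows up to 3 reads, or at most 0.536 RPKM for H2-Aa and 0.480 RPKM for H2-Ab1 in the shLuc library headed 2, a limit that covers counting error only. The pseudogene row H2-Ea-ps, whose gene is defective in C57BL/6 mice, gave 1 read in the shLuc library headed 3. H2-Ob gave none, and H2-DMb1 and H2-DMb2, chains of the peptide exchange factor H2-M, gave few reads. H2-DMb1 had 1 and 4 reads in shCTCF cells and 3 and 0 in shLuc cells, and H2-DMb2 had 3 and 0 reads in shCTCF cells and 0 and 1 in shLuc cells. H2-DMa, the partner chain, was at 1.18 and 1.554 RPKM in shCTCF cells and at 1.22 and 1.04 RPKM in shLuc cells. The exceptions were the beta chain genes H2-Eb1 and H2-Eb2. H2-Eb2 was at 4.36 and 5.23 RPKM in shCTCF cells and at 6.10 and 6.03 RPKM in shLuc cells, on 64 and 102 against 108 and 125 reads. Both shCTCF values lay below both shLuc values, with a log2 change of −0.29 (SE 0.14, interval −0.60 to 0.02, adjusted p = 0.39 in limma). H2-Eb1 was at 2.07 and 2.60 RPKM in shCTCF cells and at 2.86 and 2.34 RPKM in shLuc cells, with overlap.

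Several partners of class II, and most RNA markers of the cells known to carry it, were low as well. Cd74, the invariant chain, shares its row with Mir5107 and was at 0.564 and 0 RPKM in shCTCF cells and at 0.156 and 0.332 RPKM in shLuc cells, and Ctss, the protease that trims it, gave 0.340 RPKM in the shCTCF library headed 2 and was at 0 elsewhere. Of 10 class II pathway genes 5 were tested and 0 called in limma, with a median of 0.09 and 0 at an unadjusted p below 0.05. That median was −0.01 without shCTCF library 3, 0.19 without shCTCF library 2 and 0.13 without shLuc library 3. At a mean of 5 RPKM or more only 1 row was left, Ctsb+Fdft1, with a log2 change of −0.19. This row, which joins the protease gene Ctsb to another gene, was not low. It was at 31.9 and 37.1 RPKM in shCTCF cells and at 40.6 and 38.1 RPKM in shLuc cells. Of 8 B cell markers 1, Cd22, reached the filter, and Ms4a1 and Pax5 were at 0 in all libraries. The summed B cell markers were at 2.86 and 2.69 RPKM in shCTCF cells and at 3.15 and 3.10 RPKM in shLuc cells. Of 11 macrophage and dendritic cell markers, 3 reached the filter. Cd68, a lysosomal protein of macrophages, was at 3.65 and 3.10 RPKM in shCTCF cells and at 1.70 and 1.46 RPKM in shLuc cells, without overlap (log2 change 0.76, adjusted p = 0.089 in limma). Flt3, a receptor of dendritic cell progenitors, was at 5.60 and 4.93 RPKM in shCTCF cells and at 3.70 and 3.97 RPKM in shLuc cells, also without overlap (log2 change 0.37, adjusted p = 0.27). Itgam overlapped, with a log2 change of −0.19. Emr1, Cd14 and Siglech were at 0 in all libraries, while the sum over the 11 was 12.8 and 10.7 RPKM in shCTCF cells and 8.04 and 9.25 RPKM in shLuc cells. Their part in the class II values was not tested.

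**Figure D3:**
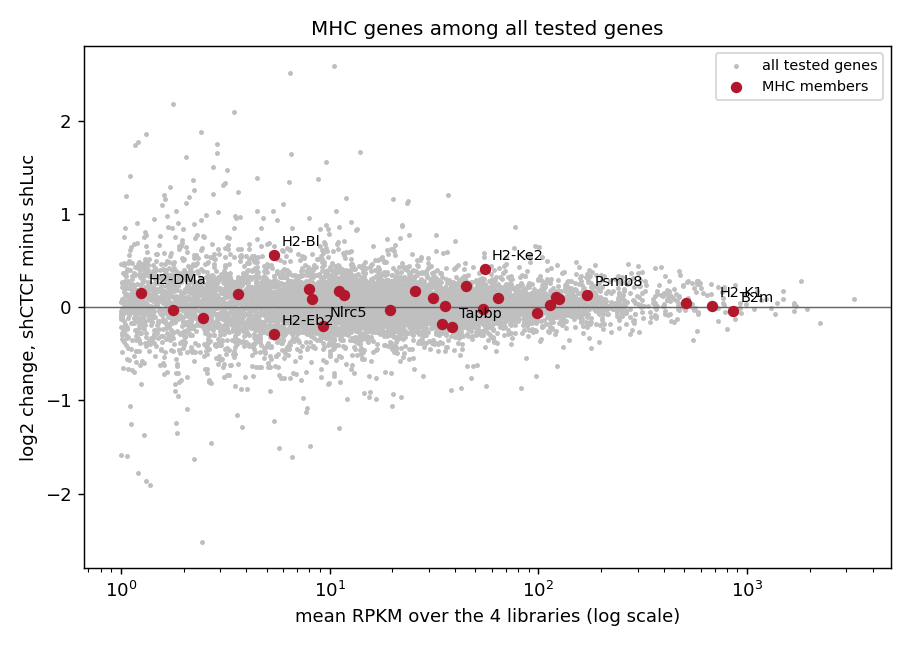
Mean RPKM over the 4 libraries (log axis) against log2 change, shCTCF minus shLuc, for all 9898 tested genes (grey) and the 29 tested MHC members (red). The members lie within the grey cloud at every level, with H2-Bl and H2-Ke2 the highest of them and H2-Eb2 and Tapbp the lowest.

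Some H2- symbols belong to genes of other function that lie among the class I genes. H2-Ke2, listed by RefSeq as Pfdn6 and coding for a subunit of the chaperone prefoldin, was at 60.5 and 66.1 RPKM in shCTCF cells and at 42.7 and 52.8 RPKM in shLuc cells, on 189 and 274 against 161 and 233 reads. Both shCTCF values lay above both shLuc values. The log2 change was 0.40 (SE 0.11, interval 0.15 to 0.66), with the smallest unadjusted p of the members (0.0063) and an adjusted p of 0.15 in limma. H2-Ke6, a steroid dehydrogenase gene, averaged 19.2 ± 2.85 RPKM in shCTCF cells and 19.7 ± 2.96 RPKM in shLuc cells, a log2 change of −0.03.

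Most members lie along chromosome 17, where class I, class II and unrelated genes alternate. The RefSeq table of GRCm38.p6 was used for their order only, since the reads were aligned to mm9. From Tapbp to H2-M3 there were 26 tested members and 81 other tested genes. H2-Q8 was not placed in this order and is left out of it. Of the other genes, 1 was called (1.29% of all tested genes were), and the libraries did not overlap in 38.3% of them, against 30.8% of the members in the stretch and 44.0% of all tested genes. Median log2 changes were 0.09 for the members and 0.04 for the other genes. The 7 members from H2-D1 to H2-Q10, with no other tested gene among them, had log2 changes of 0.04 to 0.22. The 7 members from the class II end (H2-DMa to H2-Eb2, with Psmb9, Tap1, Psmb8 and Tap2 among them) had a median of −0.02 and a range of −0.29 to 0.15. Between H2-K1 and H2-Ke6 lies Ring1, a Polycomb E3 ligase, which was at 18.3 and 18.9 RPKM in shCTCF cells and at 14.6 and 12.0 RPKM in shLuc cells. Its log2 change was 0.46 (SE 0.11, adjusted p = 0.11 in limma), and in the authors' deposited table it is listed with a log2 fold change of 0.48 and an FDR of 0.027. Its neighbours H2-K1 and H2-Ke6 had log2 changes of 0.01 and −0.03. In the list of other genes of the MHC region, 45 of 67 tested were positive with a median of 0.03, and 0 were called in limma, with 5 at an unadjusted p below 0.05, where 14.1% of all tested genes had such a p. The median was −0.01 without shLuc library 3, 0.02 without shCTCF library 3, and 0.04 without either library 2. Bak1, a pro-apoptotic BCL2 family member, was at 55.4 and 54.5 RPKM in shCTCF cells and at 78.2 and 66.1 RPKM in shLuc cells, a log2 change of −0.38 (adjusted p = 0.12). Pbx2, a homeobox gene, had a log2 change of 0.39 (adjusted p = 0.15).

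**Figure D4:**
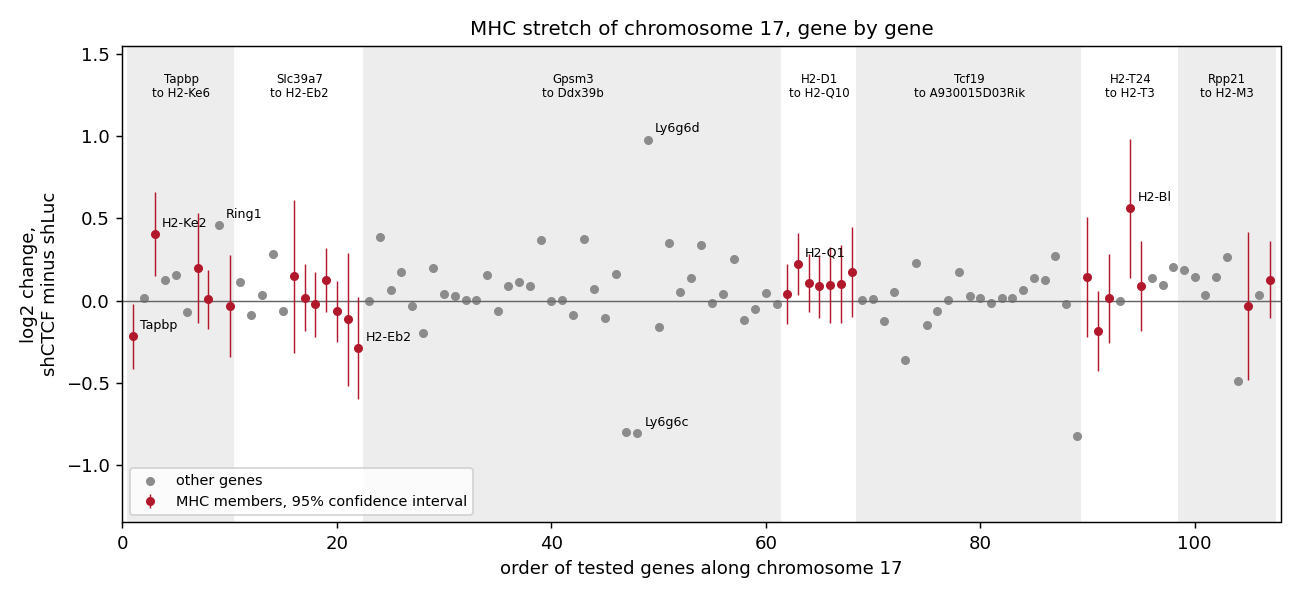
Log2 change, shCTCF minus shLuc, of the 107 tested genes from Tapbp to H2-M3 in their order along chromosome 17, with MHC members in red (bars are 95% confidence intervals) and other genes in grey; shaded blocks are named by their first and last gene. The members lie between −0.29 and 0.56, and points beyond that range, among them Ly6g6c at −0.81 and Ly6g6d at 0.98, are other genes.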

How the data were processed

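Poly(A) RNA was sequenced from EL4 cells with either hairpin, 2 libraries each, grouped by the sample titles. Reads were aligned with Bowtie2 to mm9, per the submitters' processing notes; no source used here gives the counter, its handling of strand or of multiply matching reads, or the annotation version. RPKM values were deposited by the authors for 22119 rows named by RefSeq transcripts, in which overlapping genes share a row. Their deposited table of changed genes adds a log2 fold change and a p-value with its FDR, per the file headers, and numbers the same libraries 1 and 2. Every library's values were whole multiples of 1 read (relative tolerance 3e-11) in 98.6% of the 7035 expressed rows with 1 transcript and in 22.1% of the 2905 joined rows. Reads were recovered for 44 of the 47 members as the smallest whole numbers the values allow, so they can be too low, and depth was stated from them.

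Symbols with several rows were represented by their highest row. Where the mean RPKM reached 1, log2(RPKM + 1) was fitted in limma (version 3.58.1, R 4.3.3; trended empirical Bayes), shCTCF minus shLuc, with Benjamini-Hochberg adjustment over all 9898 genes and a threshold of 0.05. Confidence intervals are at 95%. The fit and the read search were tested on simulated data. The members and lists were chosen with earlier results of these data known. All tested members were named, with values per library for those at an unadjusted p below 0.05, the 6 of highest mean, class II genes and regulators; other genes are list members of small p or high level, and values beyond this rule were chosen after they were seen. Alternatives were a pseudocount of 0.1, other filters, quantile normalization, summed rows, no trend, limma-voom on recovered reads, a replicate block and leaving out each library. One B cell marker is not reported here by name. Upstream sequences are RefSeq's, and the motif letters were chosen after matches had been seen. Calculations used Python 3.11.15, pandas 2.3.3 and numpy 2.4.6, and plots matplotlib 3.10.9.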

Additional observations from a re-analysis of the deposited data

How the results depend on the processing

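In limma 0 members were called under every alternative except a replicate block on the column numbers, where 2 were, H2-Ke2 (adjusted p = 0.013) and H2-Bl (adjusted p = 0.039), with the same log2 changes. The labels do not say that a number marks a shared batch, and deviations of the libraries headed 2 had a correlation of 0.165. With the block 507 of all tested genes were called, against 128 without it, and 2 companion genes (Bak1 and Ring1), against 0. Over all tested genes 331 were called in limma-voom on recovered reads (1 companion gene, Bak1), 60 without the trend, 0 without the filter on low values (1619 at an unadjusted p below 0.05), and 0 to 78 with 1 library left out, 0 without the shLuc library headed 2. With 1 library left out, the lone library of its group is assumed to vary like the others, and the median of the members ranged from −0.0168 to 0.1154. Of 12 alternatives (11 for Tapbp, which has no recovered reads), H2-K1 and Psmb9 took the opposite sign in 3 each, at log2 changes of −0.12 to 0.06 and −0.06 to 0.09. Tapbp, Nlrc5, H2-Eb2, H2-Q1, H2-Ke2 and H2-Bl kept their signs. The groups of these genes did not overlap, so leaving out 1 library could not have changed the sign. Members with overlap, such as H2-K2 and Tap2, kept theirs as well. Changes of low members such as H2-Bl are limited by their reads.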

Other observations

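Within the MHC stretch of chromosome 17, 3 neighbouring rows at the Ly6 genes stood out by their log2 changes, and were chosen after their values were seen. Ly6g6c fell to 6.71 and 9.21 RPKM in shCTCF cells, against 15.5 and 13.6 RPKM in shLuc cells, a log2 change of −0.81 (SE 0.15, adjusted p = 0.047 in limma). It is listed in the authors' deposited table with a log2 fold change of −0.84 and an FDR of 0.0054. The joined row AU023871+G6b beside it was at 1.71 and 1.58 RPKM in shCTCF cells and at 4.02 and 3.24 RPKM in shLuc cells, a log2 change of −0.80 (adjusted p = 0.076). It is listed in the authors' deposited table with an FDR of 0.0047. Ly6g6d on the other side was at 4.56 and 5.44 RPKM in shCTCF cells and at 2.52 and 1.62 RPKM in shLuc cells, a log2 change of 0.98 (adjusted p = 0.053). In all 3 rows the groups did not overlap.

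The row BC051537+H2-Oa, which holds a class II gene, was at 6.11 RPKM in each shCTCF library and at 4.28 and 5.44 RPKM in shLuc cells, a log2 change of 0.29 (adjusted p = 0.43 in limma).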
